A study of Mus musculus with 6 samples.

Results

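Oxidative phosphorylation is carried out by 5 protein complexes of the inner mitochondrial membrane, and their nuclear-encoded subunits were followed here in the retinal pigment epithelium (RPE), the cell layer behind the photoreceptors, of BALB/c mice, an albino strain. The members were taken by gene symbol, from Ndufa, Ndufb, Ndufc, Ndufs and Ndufv for complex I, Sdha to Sdhd for complex II, Uqcr and Cyc1 for complex III, Cox4i, Cox5, Cox6, Cox7 and Cox8 for complex IV and Atp5 for complex V, with the probe set of the highest mean signal for each gene. This gave 91 of 18193 genes measured, of which 83 were subunits, with 36 in complex I, 4 in complex II, 9 in complex III, 17 in complex IV and 17 in complex V. The other 8 were Ndufaf genes, which share the Ndufa spelling but code for assembly factors of complex I, and they are described apart. Some other genes of these complexes were not analysed here.

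All mice had 1 week of dark adaptation. The dark-adapted group (3 arrays) received no further treatment, and the light-damaged group (3 arrays) was then exposed to 6000 lux of white fluorescent light during 1.5 h and sampled 24 h later. The labels give neither age nor sex, and they do not say whether a sample was 1 animal or a pool, so the p-values reflect the spread of these samples alone, and that spread may be technical. Each value is the log2 signal of a probe set after RMA, the submitters' normalization. Differences are light-damaged minus dark-adapted with the replicate number as a pair, ± standard error (SE), n = 3 per group, and a gene was called at an adjusted p under 0.05 in limma over all genes.

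In each group replicate 1 stood apart from the rest. Its Gapdh control probe sets differed by 2.45 (dark-adapted) and 2.48 (light-damaged) log2 units between the 3′ and the 5′ end, which reflects how intact or how evenly labelled the RNA was, whereas the other 4 arrays had 1.54 to 1.80. RPE markers were high, with a mean of 12 markers between 11.60 and 12.50 per array, but photoreceptor markers were high as well, at 11.03 to 12.24 over 16 genes. The samples therefore held RNA of both cell types, and in such bulk samples fewer cells of a type and less RNA per cell cannot be told apart. Of the 16 photoreceptor markers, 8 fell and none rose, and of the 12 RPE markers 3 fell and none rose. All 12 RPE markers lay below 0, with a median of -0.49, and 10 were lower in 3 of 3 pairs. Of the photoreceptor markers 15 lay below 0, with a median of -0.54. At an unadjusted p under 0.05, called genes included, 9 RPE and 13 photoreceptor markers were lower, where all genes gave 9.57%. Among 15 macrophage and microglia markers 14 rose, with the list mean at 9.49 to 9.79 in dark-adapted and 10.45 to 10.73 in light-damaged arrays. Of 6 Müller glia markers 2 rose, and 3 others were lower in all 3 pairs at an unadjusted p under 0.05 without passing. Of 6 endothelial markers 1 rose, and of 14 skeletal muscle markers none passed in limma, with 4 at an unadjusted p under 0.05. The part of these shifts in the values below was not tested.

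Complex I takes electrons from NADH and complex II from succinate, and both pass them through coenzyme Q to complex III. Complex III reduces cytochrome c, complex IV hands the electrons to oxygen, and complex V, the ATP synthase, uses the resulting proton gradient to make ATP. The RPE relies strongly on this pathway while glucose passes through it to the photoreceptors, whose inner segments are themselves packed with mitochondria. Promoters of the nuclear genes often carry sites for nuclear respiratory factor 1, for ETS factors such as GABP, and for YY1, and the coactivators of the PGC-1 family and the estrogen-related receptors act on many of them.

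The 250 bases before the gene start are shown for 3 members, each with 1 of these 3 sites in letters, as examples. None of the 3 genes passed in limma. A link of these sites to the PGC-1 family genes described further on was not tested. Capitals mark the matched letters, and the sequences are those of RefSeq on GRCm38.p6, 5′ to 3′ along the minus strand.
Atp5g2 (chr15:102671048-102671297): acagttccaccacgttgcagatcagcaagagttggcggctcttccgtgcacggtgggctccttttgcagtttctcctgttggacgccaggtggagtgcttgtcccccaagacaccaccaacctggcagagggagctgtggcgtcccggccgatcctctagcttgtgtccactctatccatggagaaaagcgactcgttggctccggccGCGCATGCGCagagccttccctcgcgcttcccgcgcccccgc
Uqcrh (chr4:116075071-116075320): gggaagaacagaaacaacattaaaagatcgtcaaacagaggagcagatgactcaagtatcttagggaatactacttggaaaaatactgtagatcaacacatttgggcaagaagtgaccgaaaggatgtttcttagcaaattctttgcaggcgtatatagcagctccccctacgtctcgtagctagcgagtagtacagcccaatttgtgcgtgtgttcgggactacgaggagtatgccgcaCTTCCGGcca
Ndufs8 (chr19:3912775-3913024): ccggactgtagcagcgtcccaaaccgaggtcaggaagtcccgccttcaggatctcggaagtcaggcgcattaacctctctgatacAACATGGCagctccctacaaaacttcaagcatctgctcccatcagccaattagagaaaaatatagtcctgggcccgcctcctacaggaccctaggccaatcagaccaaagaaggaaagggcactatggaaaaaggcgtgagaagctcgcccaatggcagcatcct

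In Atp5g2, a gene for the proton-carrying c-ring of the ATP synthase, the nuclear respiratory factor 1 site, whose full letters are the capitals shown, begins 42 bases before the gene start. Uqcrh, the hinge protein of complex III, holds the ETS core CCGGAAG on the opposite strand 10 bases before the start. Ndufs8, an iron-sulfur subunit of complex I, holds the YY1 core GCCATNTT on the opposite strand 165 bases before it. Both strands were searched in the same window, and the matches in these 3 genes do not overlap. Of the 91 members, 74 had a promoter in the RefSeq table, and 4 of these (5.41%) held the nuclear respiratory factor 1 letters, against 0.877% of all 27025 genes in the table. The ETS core was found in 14 members (18.9%) and 7.83% of all genes, and the YY1 core in 7 (9.46%) and 4.49%. The matches are a description of these letters and show no binding.

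None of the 83 subunits passed in limma after light damage, and 1 of the 91 members did, the assembly factor Ndufaf6, which rose. The median difference of the 91 members was -0.01 on the log2 scale and that of all genes -9.4e-05. Of the 91, 49 lay below 0, close to the 50.1% of all genes that did. In all 3 pairs 22 members were higher and 29 lower, where all genes gave 19.9% and 20.7%. The members were bright, with 64 of the 91 among the 1820 genes of highest mean signal. Of those 1820 genes 60.8% lay below 0, with a median difference of -0.07. In all 3 pairs 19.5% of them were higher and 34.0% lower, so bright genes also leaned lower. Over all genes, 908 were called (4.99%), 559 higher (3.07%) and 349 lower (1.92%). At an unadjusted p under 0.05, 3 members had a higher and 7 a lower value, where the share over all genes was 9.48% and 9.57%. Without the replicate block 9 genes were called (0.0495%) and no member was among them. In that fit Ndufaf6 was the 1 member with an unadjusted p under 0.05, where 1080 of 18193 genes had one. The groups did not overlap in 4 members: Ndufaf6 and Ndufb6 were higher, and Sdha and Uqcrb lower, in every light-damaged array. Over all genes the groups were separate in 6.61% upward and 3.72% downward.

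The precision behind this is given by the intervals of the differences. Over the 83 subunits the differences lay between -0.32 and 0.28, with a median SE of 0.09. The 95% limma interval lay within a 1.5-fold change either way for 79 of the 83. The lowest bound was that of Cox8b at -0.64, a 1.56-fold decrease, and the highest that of Cox6a2 at 0.69, a 1.61-fold increase. The interval, which is not adjusted for the number of genes, held 0 for 74 of the 83. Single subunits may have shifted by amounts within their own intervals. These intervals are those of the fit with the replicate block. Without the block the SE of the subunits ran from 0.10 (Uqcrb) to 0.56 (Atp5l), against 0.09 and 0.10 with it. If the replicate numbers are not true pairs, these intervals cannot exclude a shift beyond 1.5-fold.

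**Figure D1:**
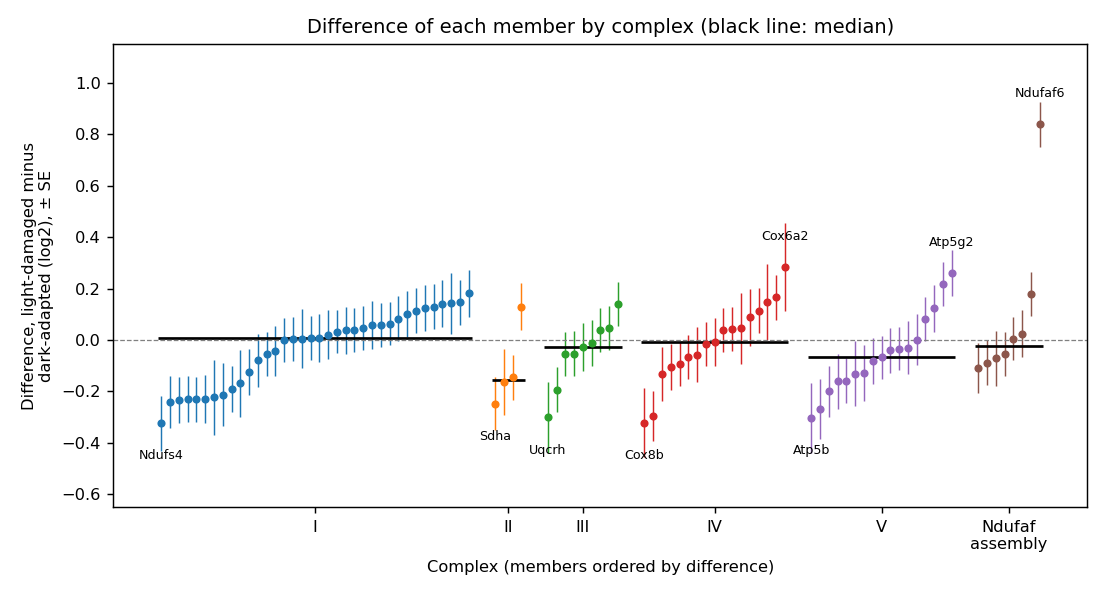
Difference of each of the 91 members between light-damaged and dark-adapted RPE on the log2 scale (y axis, ± SE, n = 3 pairs), ordered within its complex (x axis), with the median of each complex as a black line. The 83 subunits lie between -0.32 and 0.28, and the assembly factor Ndufaf6 stands at 0.84.

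Complex I subunits were spread around 0. Of 36, 15 had a difference below 0 and 21 above, and the median was 0.01. The 36, taken by symbol, include Ndufa4 and Ndufa4l2, which are described with complex IV. At an unadjusted p under 0.05, 5 were lower (Ndufs4, Ndufb3, Ndufb11, Ndufv3 and Ndufs3) and 0 higher. All genes gave 9.57% lower and 9.48% higher. Ndufs4, an accessory subunit needed for a stable complex, had the lowest difference, with 9.97, 10.04 and 10.34 in dark-adapted replicates 1 to 3 and 9.41, 9.89 and 10.07 in light-damaged ones. It was lower in 3 of 3 pairs while the groups overlapped, and the difference of -0.32 ± 0.11 did not pass (limma adjusted p = 0.17). Its 3 dimmer probe sets gave -0.21, 0.01 and 0.07. Ndufb2, a subunit of the membrane arm, had the highest difference at 0.18 ± 0.09, and its 2 dimmer probe sets gave 0.12 and -0.13.

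The 6 core subunits of complex I that were measured, which carry the flavin and the iron-sulfur clusters along which electrons travel or sit in the same arm, did not share a direction. Ndufs1 had a difference of -0.21, which was -0.05 without replicate 1, and Ndufs3 of -0.23. Ndufv1, which binds NADH, had 0.003 and its partner Ndufv2 0.06. Their dimmer gene-specific probe sets, with names that lack an s, x or a before at, gave -0.23 and -0.08. The other sets of these genes gave -0.01 and 0.07. Ndufs7 and Ndufs8, near the coenzyme Q site, had 0.06 and 0.13. Ndufv3, a small subunit of the NADH-binding module, had a difference of -0.23 ± 0.09. The supernumerary subunit Ndufb6 was separate between the groups, at 11.71, 11.56 and 11.73 in the dark-adapted and 11.81, 11.77 and 11.85 in the light-damaged arrays. That gap was 0.15 ± 0.09 and did not pass (limma adjusted p = 0.44). Ndufb1, at 6.44 to 6.70 over the arrays, had a difference of 0.14.

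Ndufa12, an accessory subunit of complex I, depended on the probe set. The brightest one, an x_at set that can bind related transcripts, gave 0.04, and 2 others gave 0.06 and 0.01. A dim gene-specific one gave -0.98 ± 0.16, and with that probe set in place of the brightest Ndufa12 was called lower (limma adjusted p = 0.0014 with the more variable and 0.031 with the gene-specific probe set of each gene). It was named after its values were seen. Over all members 89 more probe sets were present. The sign was opposite to that of the one used in 22, and in 0 of these were both at an unadjusted p under 0.05.

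Complex II, succinate dehydrogenase, is also an enzyme of the tricarboxylic acid cycle. Of its 4 subunits 3 lay below 0, and the median was -0.15. The flavoprotein Sdha was at 12.48, 12.44 and 12.52 in dark-adapted and 12.03, 12.24 and 12.43 in light-damaged arrays. Every light-damaged array was below every dark-adapted one, the gap being smallest between light-damaged replicate 3 and dark-adapted replicate 2. The difference of -0.25 ± 0.10 did not pass (limma adjusted p = 0.27), and a second bright probe set gave -0.18. The membrane anchors Sdhc and Sdhd had differences of -0.15 and -0.16, and the iron-sulfur subunit Sdhb 0.13. The complex II median was -0.30 in pair 1, -0.02 in pair 2 and -0.05 in pair 3, so it rested mostly on pair 1, and it was -0.07 without the replicate 1 arrays.

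Complex III had 6 of 9 members below 0 and a median of -0.03. Uqcrh was at 11.29, 11.81 and 11.94 in dark-adapted and 10.60, 11.66 and 11.88 in light-damaged arrays, with light-damaged replicate 1 far below the rest. Its difference was -0.30 ± 0.14 (limma adjusted p = 0.31), and -0.10 without replicate 1. The Rieske iron-sulfur protein Uqcrfs1 was at 10.91, 12.04 and 12.24 against 10.65, 11.86 and 12.10. It was lower in 3 of 3 pairs by amounts far smaller than the step between replicate 1 and the others, and its difference was -0.19 ± 0.09. The core proteins Uqcrc1 and Uqcrc2 had -0.03 and -0.01, and Cyc1, the cytochrome c1 heme protein, 0.05. Uqcrb, the other member with all light-damaged arrays below all dark-adapted ones, differed by -0.05 ± 0.09, at 14.28 to 14.29 against 14.18 to 14.26. Uqcr10 had a difference of -0.05 and Uqcrq, the highest in complex III, 0.14.

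Complex IV, cytochrome c oxidase, had 9 of 17 members below 0 and a median of -0.01. The ubiquitous subunits Cox4i1, Cox5a and Cox5b had differences of -0.13, 0.09 and 0.04. Further probe sets of Cox5a gave 0.12 and -0.16. Those of Cox5b gave 0.06, 0.06 and 0.07, and its dimmest ones, at mean signals of 8.34 and 5.62, gave -0.09 and -0.02. Cox7a2l, which takes part in joining complexes III and IV into supercomplexes, was at 11.15, 11.48 and 11.44 in dark-adapted and 10.72, 11.18 and 11.29 in light-damaged arrays. It was lower in 3 of 3 pairs, with overlapping groups, and had the smallest adjusted p of any subunit (-0.29 ± 0.10, limma adjusted p = 0.16). The other probe sets of Cox7a2l gave -0.29 and -0.42.

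Several complex IV subunits come in isoforms used in different tissues. The hypoxia-responsive Cox4i2 had 0.05 beside Cox4i1, and Cox6b2, a testis form, -0.06 beside 0.17 for Cox6b1. Cox7b2 and Cox8c, also known from testis, had -0.07 and -0.01, and Cox8a -0.09. The heart and skeletal muscle forms were Cox6a2 with 0.28 ± 0.17, Cox7a1 with 0.15 ± 0.15 and Cox8b with -0.32 ± 0.13, where the ubiquitous Cox6a1 and Cox7a2 had 0.11 and 0.04. Ndufa4, first named as a complex I subunit and since placed in complex IV, had -0.22, with -0.66, -0.02 and 0.005 in pairs 1 to 3, so the value rested on pair 1. Its hypoxia-linked relative Ndufa4l2 had 0.02. None of these passed in limma.

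The 3 muscle forms varied more between replicates than between groups. Cox6a2 was at 8.47, 7.77 and 7.65 in dark-adapted and 9.24, 8.01 and 7.49 in light-damaged replicates 1 to 3, Cox7a1 at 7.69, 7.08 and 7.24 against 8.20, 7.24 and 7.005. Cox8b was at 10.87, 9.90 and 10.39 against 10.78, 9.71 and 9.71. In all 3 genes the replicate 1 arrays of both groups were the highest. The mean of 14 skeletal muscle markers, among them Ckm, Acta1 and Mylpf, was 8.91 and 9.20 for replicate 1 of the 2 groups but 7.29 to 7.96 elsewhere. The markers thus shared the high replicate 1 of these 3 genes. Between the groups all 14 markers had a difference above 0, with a median of 0.21. Cox6a2 and Cox7a1 also lay above 0, whereas Cox8b was lower in 3 of 3 pairs (-0.32). The part of muscle RNA in their values was not tested.

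**Figure D2:**
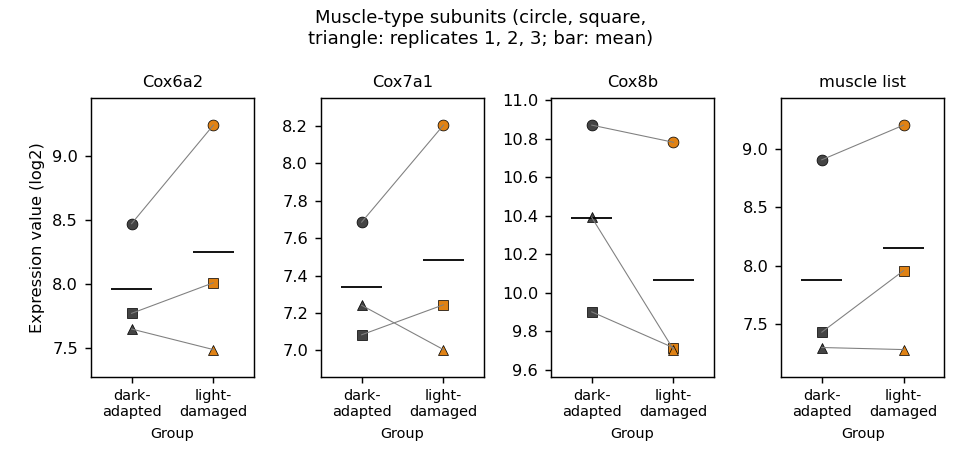
Log2 expression values of Cox6a2, Cox7a1 and Cox8b and the mean of 14 skeletal muscle markers (y axes, scaled separately) in dark-adapted and light-damaged arrays (x axis), with circles, squares and triangles for replicates 1, 2 and 3, lines joining pairs and bars at group means. The circles, replicate 1, are the highest points of their group in each panel.

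Complex V had 12 of 17 members below 0 and a median of -0.07. Of the 17, 15 were among the 1820 genes of highest mean signal, whose median was also -0.07, with 60.8% below 0. The lowest differences were those of 2 subunits of the F1 part, and neither passed. Atp5b, the catalytic beta subunit, was at 12.72, 13.40 and 13.57 in dark-adapted and 12.04, 13.33 and 13.41 in light-damaged arrays, and Atp5a1, the alpha subunit, had a difference of -0.27. Atp5b was lower in 3 of 3 pairs, with differences of -0.68, -0.07 and -0.15 in pairs 1 to 3, so pair 1 gave most of it. Its difference was -0.30 ± 0.13 (limma adjusted p = 0.30). Without replicate 1 Atp5b and Atp5a1 had -0.11 and -0.12, and a second bright probe set of Atp5a1 gave -0.08.

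The c-ring genes Atp5g1, Atp5g2 and Atp5g3 code for the same mature protein with different targeting peptides. Atp5g2 was at 11.11, 11.14 and 11.49 in dark-adapted and 11.40, 11.48 and 11.65 in light-damaged arrays. It was higher in 3 of 3 pairs with overlapping groups, at 0.26 ± 0.09 (limma adjusted p = 0.18), and it was the highest of complex V. With the mean of its probe sets Atp5g2 had 0.09. Atp5g1 had 0.12 and Atp5g3 -0.13. A second probe set of Atp5g1 gave -0.25, at a mean signal of only 5.27 against 11.00 for the one used. Atp5e, the epsilon subunit, was the other complex V member with an unadjusted p under 0.05, at 0.22 ± 0.09. Atp5l, a subunit of the membrane part, had a difference of 0.001 while spanning 8.77 to 10.47 over the arrays.

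**Figure D3:**
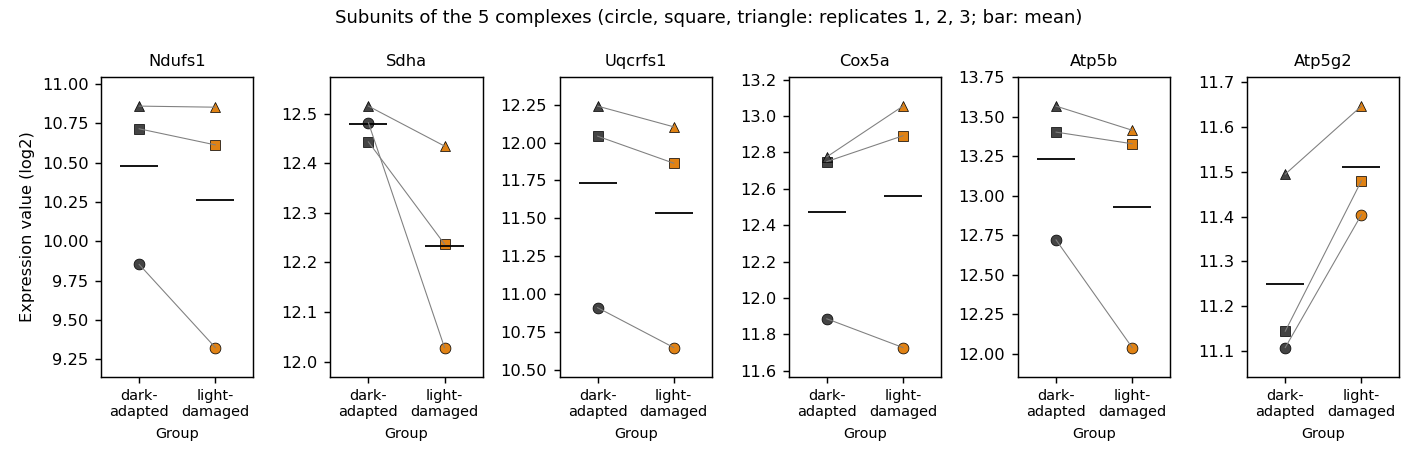
Log2 expression values of 1 or 2 subunits of each complex (y axes, scaled separately) in dark-adapted and light-damaged arrays (x axis), with circles, squares and triangles for replicates 1, 2 and 3, lines joining pairs and bars at group means. In Ndufs1, Uqcrfs1, Cox5a and Atp5b the circles lie far below the other points of both groups, and of these 6 genes only Sdha has separate groups.

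Replicate number moved most members further than light did. The mean deviation of replicate 1 from replicates 2 and 3, averaged over the groups, was larger in size than the light difference in 71 of 91 members, and over all genes this was so for 14195 of 18193. Its median size was 0.31 in the members and 0.32 over all genes, against 0.11 and 0.11 for the light difference. In 54 members replicate 1 was the lower in both groups and in 30 the higher in both. Over all 18193 genes the lean was opposite, with 6704 lower in both and 8638 higher in both. The median deviation of the members was -0.08 in dark-adapted and -0.14 in light-damaged arrays. For all genes it was 0.05 and 0.07, and for the 1820 genes of highest mean signal -0.14 and -0.32. Complex V was the most one-sided, with 14 of 17 lower in replicate 1 of both groups, and complex IV had 7 lower and 10 higher. For Atp5l the deviation was -1.26 in dark-adapted and -1.52 in light-damaged arrays, and for Uqcrfs1 it was -1.23 and -1.34. RNA quality differed in the same arrays, as given above for Gapdh, and its part was not tested.

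**Figure D4:**
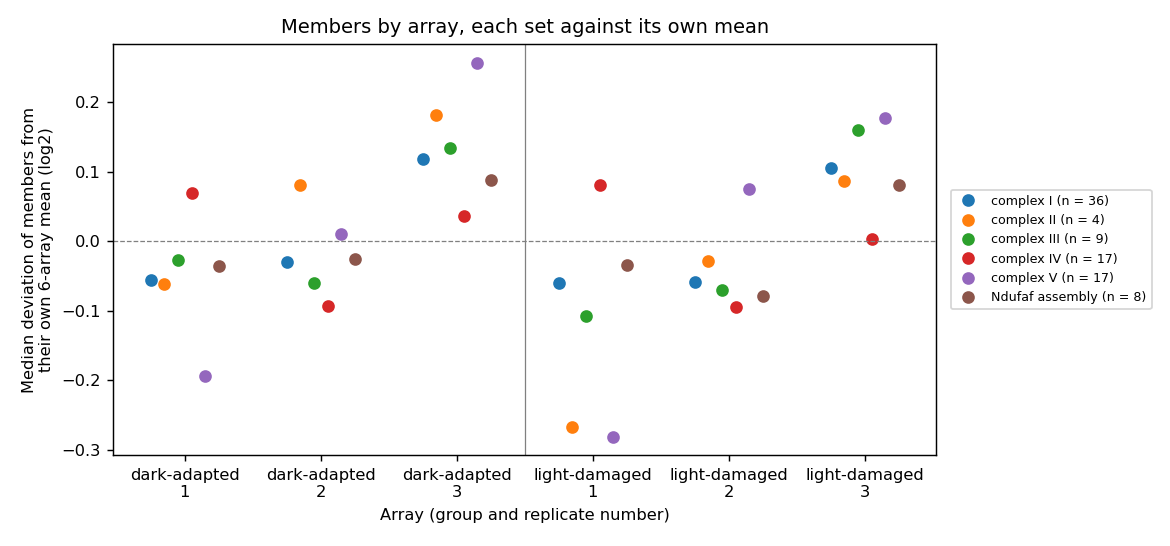
Median deviation of the members of each complex from their own mean over the 6 arrays (y axis, log2) in each array (x axis, group and replicate number). Replicate 3 lies above 0 in both groups for every set and replicate 1 below 0 for every set except complex IV, and complex V has the widest range, from -0.28 to 0.26.

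Among the 8 Ndufaf assembly factors of complex I, Ndufaf6 rose. It was at 7.55, 7.98 and 8.29 in dark-adapted and 8.42, 8.83 and 9.08 in light-damaged replicates 1 to 3. All light-damaged arrays lay above all dark-adapted ones, and the pairs differed by 0.88, 0.85 and 0.79. The mean went from 7.94 ± 0.37 (SD, n = 3) to 8.78 ± 0.33, a 1.79-fold rise of 0.84 ± 0.09 (limma adjusted p = 0.0059). Without the block the call was lost (limma adjusted p = 0.55), and it was kept without any 1 of the 3 pairs (0.82, 0.83 and 0.86). One probe set measured Ndufaf6. The other 7 Ndufaf genes had differences between -0.11 (Ndufaf7) and 0.18 (Ndufaf4), with 0.01 for Ndufaf8.

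Other genes of the pathway were read from lists. Of 41 assembly factors of complexes I to V, 7 of them Ndufaf genes given above, 1 rose, Ndufaf6, and 1 fell, Sdhaf4, with a list median of 0.01. Sdhaf4 helps to assemble complex II by binding Sdha. It was at 9.34, 9.84 and 10.15 in dark-adapted and 8.81, 9.43 and 9.67 in light-damaged arrays, lower by similar amounts in each pair, with a difference of -0.48 ± 0.09 (limma adjusted p = 0.033). The call was lost without replicate 2 (limma adjusted p = 0.077) and without replicate 3 (0.20).

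The lists of enzymes that feed the chain or exchange its products held 0 or 1 call each, where 4.99% of all genes were called. None of 17 tricarboxylic acid cycle genes and none of 11 coenzyme Q synthesis genes passed in limma, with medians of -0.03 and 0.02. At an unadjusted p under 0.05, 4 of the 17 were lower and 0 higher, and 2 of the 11 were higher and 0 lower. All genes gave 9.57% lower and 9.48% higher. Of 12 electron carriers and nucleotide exchangers, with a list median of -0.06, Ckmt1, the mitochondrial creatine kinase, fell by 0.77 ± 0.09 (limma adjusted p = 0.0085), with separate groups. That call was lost without replicate 3 (limma adjusted p = 0.052) and with its dimmer probe set, which gave -0.39. Cycs, cytochrome c, had 0.10. Of 15 genes of mitochondrial DNA upkeep and transcription, 1 fell, Polg2, the accessory subunit of the mitochondrial DNA polymerase (-1.14 ± 0.12), with a list median of 0.01. Of 14 glycolysis genes 1 fell, the lactate dehydrogenase gene Ldhb (-0.46 ± 0.09), a call lost without replicate 2 or 3 (limma adjusted p = 0.10 and 0.20). The glycolysis median was -0.18, with 12 of 14 genes below 0, 8 lower in 3 of 3 pairs and 4 lower at an unadjusted p under 0.05. All genes gave 50.1%, 20.7% and 9.57% for these 3 counts. The glycolysis genes had mean signals of at least 11.14, and the 1820 genes of highest mean signal at least 10.90. Of those 1820 genes, with a median of -0.07, 60.8% lay below 0 and 34.0% were lower in 3 of 3 pairs. At an unadjusted p under 0.05, 386 of the 1820 were lower.

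Of 14 genes that regulate mitochondrial gene sets, 1 rose and 3 fell, where over all genes 3.07% rose and 1.92% fell, and the list median was -0.28. Ppargc1b, the coactivator PGC-1 beta, was at 10.96, 11.31 and 11.40 in dark-adapted and 10.19, 10.23 and 10.48 in light-damaged arrays, with no overlap, and fell by 0.92 ± 0.10 (limma adjusted p = 0.0065). Pprc1, the third and growth-responsive member of the same coactivator family, went the other way, from 7.87, 8.37 and 8.58 to 8.82, 9.46 and 9.50, and rose 1.98-fold (0.99 ± 0.09, limma adjusted p = 0.0041). Both kept their calls when any 1 pair was left out, and both were lost without the block (limma adjusted p = 0.18 and 0.43).

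Ppargc1a, PGC-1 alpha, was at 8.57, 9.79 and 9.82 in dark-adapted and 7.39, 9.002 and 9.36 in light-damaged arrays. It was lower in each pair by less than replicate 1 lay below the others, so the groups overlapped, and it fell by 0.81 ± 0.14 (limma adjusted p = 0.031). Its other 4 probe sets, all of similar or lower signal, gave -0.90, -0.53, -0.24 and -0.14, and the call was lost with their mean (limma adjusted p = 0.07) or with the brightest gene-specific one (0.65). Esrrg, the estrogen-related receptor gamma, was at 7.37, 9.70 and 9.68 against 6.26, 8.71 and 9.10 and fell by 0.90 ± 0.12 (limma adjusted p = 0.014), with replicate 1 far below the others in both groups. Its 2 dimmer probe sets gave -0.02 and 0.12, and its call was lost with the mean of the probe sets and with the more variable one (limma adjusted p = 0.11 and 0.99). Without the block the calls of Ppargc1a, Esrrg, Sdhaf4, Ckmt1, Polg2 and Ldhb were all lost. Nrf1, nuclear respiratory factor 1 itself, had -0.22, Gabpa -0.28, Yy1 0.01, Esrra 0.05 and Esrrb -0.30, none of which passed. A second bright probe set gave -0.65 for Esrrb and 0.31 for Yy1. Of the 14 regulators 9 were lower and 2 higher in 3 of 3 pairs, where all genes gave 20.7% and 19.9%. At an unadjusted p under 0.05, 8 were lower and 1 higher, called genes included, where all genes gave 9.57% and 9.48%.

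**Figure D5:**
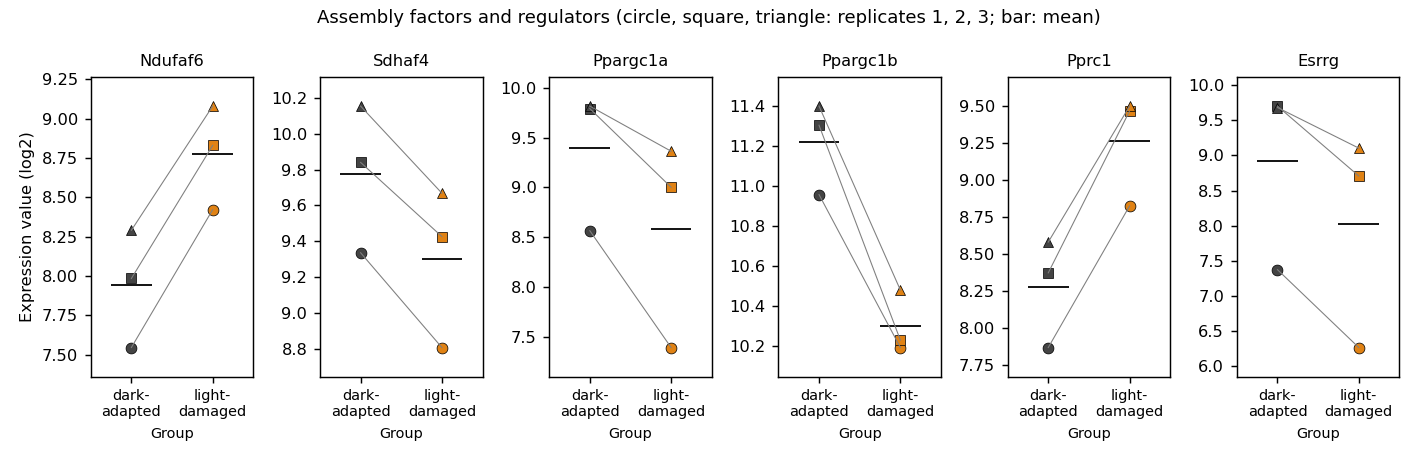
Log2 expression values of Ndufaf6, Sdhaf4, Ppargc1a, Ppargc1b, Pprc1 and Esrrg (y axes, scaled separately) in dark-adapted and light-damaged arrays (x axis), with circles, squares and triangles for replicates 1, 2 and 3, lines joining pairs and bars at group means. Each pair moves the same way within a panel, upward in Ndufaf6 and Pprc1 and downward in the other 4 genes.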

How the data were processed

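RNA of 6 RPE samples was labelled with biotin and hybridised to Affymetrix mouse arrays. Each deposited value is the log2 expression of a probe set, made with RMA per the submitters' processing notes. The version of RMA is not given in the sources used here. Of 45101 probe sets 64 were controls. The 2016 platform annotation gave 1 symbol to 34945, which left 18193 genes with the probe set of the highest mean over the 6 arrays. All 91 members matched the GRCm38.p6 gene table by Entrez number.

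Differences were fitted with limma 3.58.1 in R 4.3.3 (lmFit, eBayes, two-sided, Benjamini-Hochberg over all genes) with the replicate number as a block and 2 residual degrees of freedom. The script was tested on simulated data. The labels number the replicates without saying what a number marks. The numbers were taken as pairs because the rule that chose the members asks for it. Arrays with equal numbers deviated together (correlation across genes 0.89, 0.62 and 0.86 for numbers 1 to 3, each over 0.1). Replicate 1 drives most of this: crossing the numbers 2 and 3 gave correlations of 0.65 and 0.61. The correlations therefore cannot show that numbers 2 and 3 are rightly paired.

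The members and lists were chosen with earlier results of these data known, so no set test was run. Named members were those called, the core catalytic subunits, the isoform families, and the extremes of each complex in difference and signal. Called genes of the pathway lists were also named, and other names were chosen after their values were seen. A probe set's signal depends on its probes, so signals were compared only to choose probe sets and named members and to set apart dim or bright genes. The number of arrays limits the precision. Alternatives covered the block, each pair left out, normalization, a dim-gene filter, a pseudocount of 16, probe set choices, limma settings and array weights. Probe sets were termed gene-specific by name alone, where no s, x or a stands before at. The term does not rank the sets by accuracy.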

Additional observations from a re-analysis of the deposited data

How the results depend on the processing

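Under 13 alternatives no subunit other than Ndufa12 and Cox8b was called. Without the replicate block, the paired design being dropped, 9 genes were higher and 0 lower over all genes and 0 members were called higher. Over all genes, array weights gave 1099 higher and 776 lower, the filter on dim genes 365 higher, and leaving out 1 pair 160 to 827 higher and 68 to 418 lower, with the low end of both without replicate 3. The filter on dim genes also gave 0 members called higher, because Ndufaf6 lies just under its bound and was not tested there. Subunits called numbered 1, lower, with the probe set of the largest residual spread and with gene-specific probe sets preferred (complex I, Ndufa12 at -0.98 in both), and 1, lower, with array weights (complex IV, Cox8b at -0.48, limma adjusted p = 0.04), against 0 in each case with the settings of the report. The median of all members was -0.0553 with the mean of probe sets, -0.0570 with the largest residual spread and -0.0624 with gene-specific probe sets, and that of complex I was -0.0786 and -0.0704 with the last 2. Leaving out 1 pair gave medians of -0.03 to 0.01 over all members. Of 604 values of uncalled named members under alternatives, 40 had the sign turned. Ndufaf6 ranged from 0.80 to 0.86 where tested. Of 117 values of Ndufa12 and the called genes of the pathway lists, 18 lost the call and 2, both of Ndufa12, were called with the sign turned.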
